A study of Mus musculus with 6 samples.

Results

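The 41 genes described here encode enzymes of glycolysis, gluconeogenesis, fructose and sorbitol metabolism, pyruvate oxidation and the tricarboxylic acid (TCA) cycle, with the kinases and bifunctional enzymes that set the flow between them. They were taken by gene symbol from a table of 46095 genes, and all 41 were found and passed the filter on low counts, as did 15367 genes in all. RNA was sequenced from kidneys of mice on the C57BL/6 background, 3 labelled DHT (dihydrotestosterone, a potent androgen) and 3 labelled control, in a study of kidney injury in a model of polycystic ovary syndrome (PCOS). Both groups carry the PCOS mouse label as their strain, so only the treatment label parts them. No label used here states the age or sex of the mice, the dose or the length of treatment. Whether the 3 samples of a group came from different mice is not stated either, and the p-values then reflect only how these samples vary.

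The kidney both makes and burns glucose. Cells of the proximal tubule form glucose from lactate, glutamine and glycerol and release it, take up and split fructose, and draw their energy from the TCA cycle rather than from glycolysis. The distal nephron and the collecting duct break glucose down. Gluconeogenesis runs glycolysis backwards except at a few steps with enzymes of their own: pyruvate carboxylase, phosphoenolpyruvate carboxykinase (PEPCK), fructose-1,6-bisphosphatase and glucose-6-phosphatase.

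Libraries held 15.05 to 19.33 in units of 1e6 counts, and the 41 genes took 1.72% to 2.16% of them. Proximal tubule markers were present in all libraries, at a summed 14130 to 19160 counts per 1e6 (CPM, on library sizes scaled by TMM) in DHT and 13380 to 17130 in control. Libraries stood apart in several marker sets. Control replicate 1 had the highest summed distal tubule markers (4290 CPM, against 2208 to 2779 CPM in the others). Control replicate 3 had the highest summed loop of Henle markers (14430 CPM, against 6573 and 9181 CPM in the other controls and 6221 to 7980 CPM in DHT) and principal cell markers (735 CPM, against 352 to 482 CPM in the other libraries), and the lowest summed proximal tubule markers. DHT replicate 2 had the highest summed macrophage (356 CPM, against 101 to 235 CPM), endothelial (698 CPM, against 391 to 499 CPM) and red blood cell markers (70.3 CPM, against 2.89 to 37.5 CPM). By chi-square over degrees of freedom of their counts, DHT replicate 2 was nearer to control replicates 1 and 2 (41.61 and 45.04) than to DHT replicates 1 and 3 (53.69 and 49.80). In bulk tissue, fewer cells of a type and less RNA per cell cannot be told apart.

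Of the 41 genes, 1 rose with DHT, the D-lactate dehydrogenase gene Ldhd, and 0 fell, by edgeR's quasi-likelihood test at a Benjamini-Hochberg adjusted p of 0.05 over all genes tested. Over all 15367 genes 1.38% were called higher and 1.46% lower, so the share of these genes called was near that of the whole table. At an unadjusted p under 0.05, 9 were higher and 2 lower, against 1839 higher and 1839 lower of all 15367 genes tested. The 3 DHT libraries lay wholly above the 3 controls for 10 genes (Ldhd, Ldha, Khk, Sord, Tpi1, Pgk1, Pck2, Dlat, Suclg1 and Fh1) and wholly below them for 1, Idh3a. Among all genes tested 14.8% lay wholly above and 15.0% wholly below. The log2 fold change was positive for 27 of the 41 genes (65.9%) and for 50.3% of all genes, with medians of 0.14 and 0.003. Scaling by total counts in place of TMM moved the median of all genes to -0.10 and that of the 41 to 0.03, so 22 were then positive and 19 negative. The 41 genes' median minus that of all genes was 0.13 under either scaling.

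**Figure D1:**
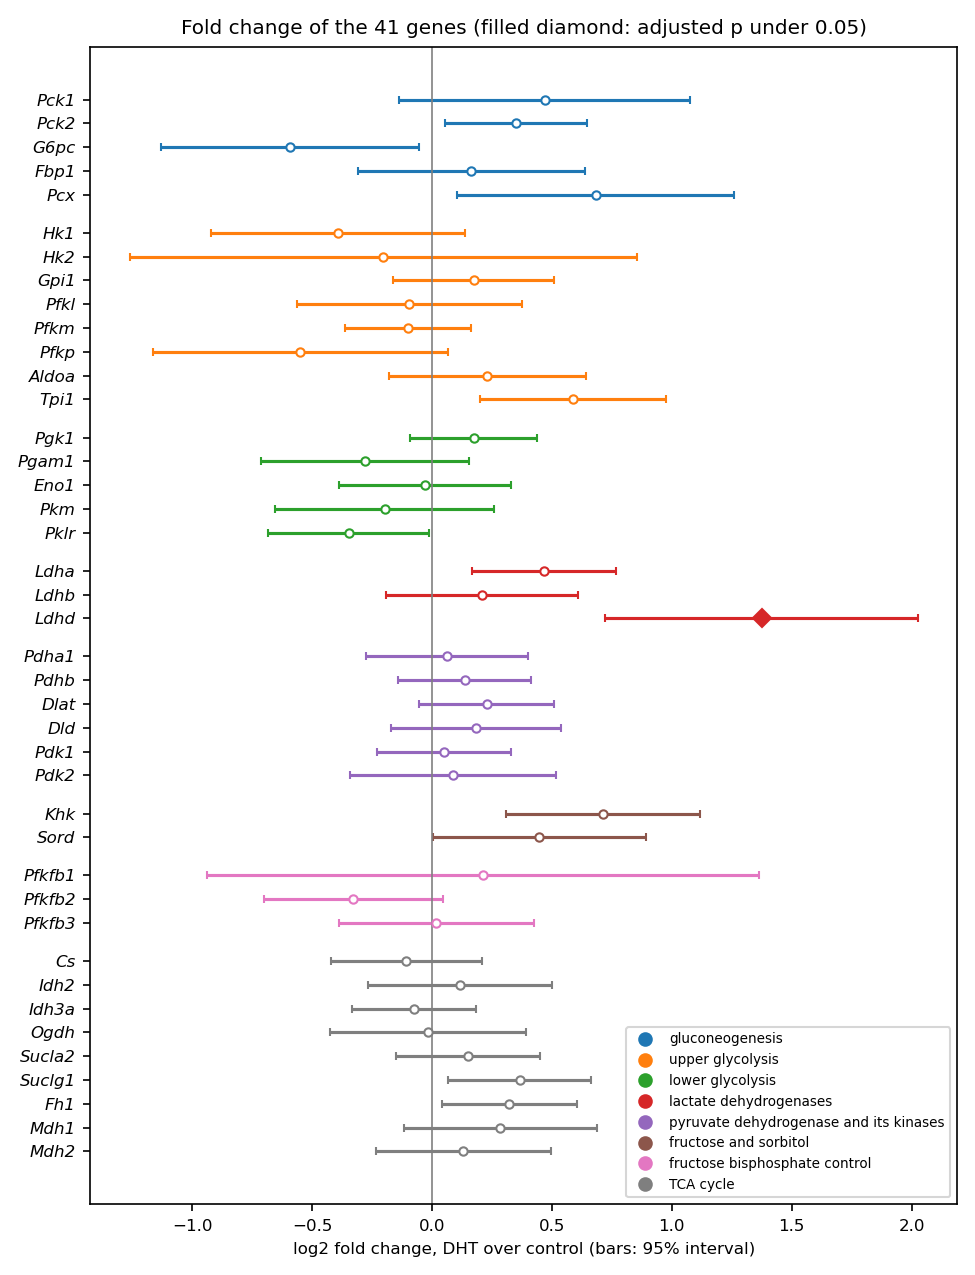
Log2 fold change, DHT over control, of the 41 genes on the horizontal axis, by gene and role, with 95% intervals (n = 3 libraries a group); the filled diamond marks the gene with an adjusted p under 0.05. Ldhd, at 1.37, lies farthest from 0, and the intervals of most other genes include 0.

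The lactate dehydrogenases were the role with the call. Ldha and Ldhb encode the subunits of the enzyme that interconverts L-lactate and pyruvate, while Ldhd encodes the unrelated mitochondrial flavoenzyme that oxidises D-lactate, a by-product of the methylglyoxal pathway. Ldhd (chromosome 8, 111623785 to 111630374, minus strand, GRCm38) was at 889, 419 and 693 CPM in DHT replicates 1, 2 and 3 and at 201, 307 and 264 CPM in control replicates 1, 2 and 3. The groups did not overlap, and DHT replicate 2 was the DHT library nearest to the controls. The mean rose from 257 ± 53.6 to 667 ± 236 CPM (SD, n = 3 each), a log2 fold change of 1.37 ± 0.28 (SE, edgeR adjusted p = 0.0465). The direction was the same in every setting tried, between 1.11 and 1.61, but the call rested on nearly every library. It was lost without DHT replicate 1 (edgeR adjusted p = 0.119), DHT replicate 3 (0.162), control replicate 1 (0.0829), control replicate 2 (0.137) or control replicate 3 (0.116). Without DHT replicate 2, the library with the most macrophage and endothelial marker RNA, the log2 fold change of Ldhd was 1.61 (edgeR adjusted p = 0.00495). Limma-voom (adjusted p = 0.0508) and edgeR with a replicate block (0.119) also lost the call, while DESeq2 kept it (adjusted p = 2.75e-05).

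In summed CPM, markers of the proximal straight segment, the last stretch of the proximal tubule, ordered the libraries as Ldhd did within each group. Their sum was 3070, 650 and 2861 CPM in DHT replicates 1, 2 and 3, while control replicates 1, 2 and 3 had 409, 1163 and 1106 CPM. DHT replicate 2 lay among the controls in this sum. The median marker did not follow the order of Ldhd under DHT. Set against the control mean, it was -0.003, -0.372 and 0.266 log2 in DHT replicates 1, 2 and 3. Of the DHT libraries, replicate 3 was the highest for Slc5a1, Slc22a7 and Slc5a10. The 5 markers did not move together: Slc7a13, an amino acid transporter gene, rose to 739, 117 and 642 CPM from 0.369, 1.504 and 0.792 CPM (edgeR adjusted p = 0.0201), and the other 4 did not pass. Atp11a, a lipid flippase gene, made up most of the sum in DHT replicates 1 and 3 (2037 and 1834 CPM), Slc22a7 averaged 42.3 ± 30.6 CPM under DHT, against 185 ± 125 CPM in the controls, and Slc5a1 had a log2 fold change of 0.04 ± 0.15. The part of this segment in the values of Ldhd was not tested.

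Intron-retaining models of Ldhd share exonic bases with Znrf1 on the opposite strand, and the strand setting of the counts is not given. The coding transcript of Ldhd shares 0 bases with Znrf1. This ubiquitin ligase gene averaged 23.1 ± 2.25 CPM under DHT, against 28.6 ± 2.37 CPM in the controls (log2 fold change -0.31 ± 0.13). The part of the shared bases in the counts of Ldhd was not tested.

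**Figure D2:**
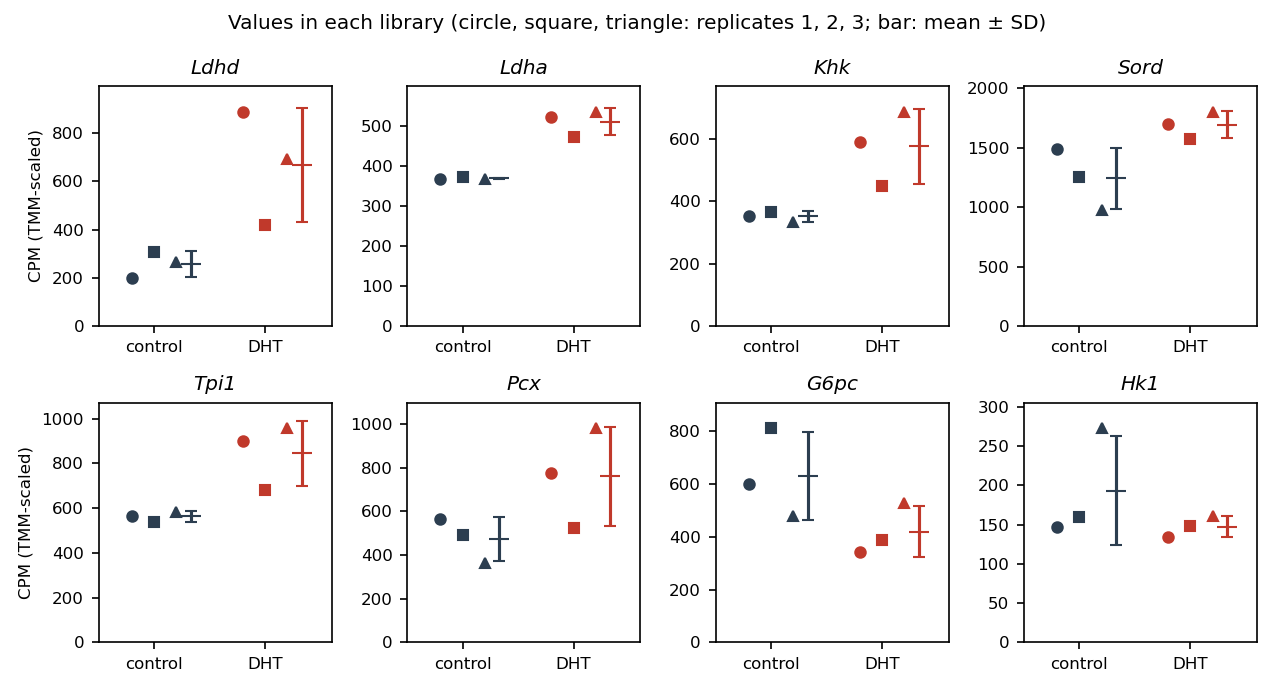
CPM in each library for 8 of the genes, controls on the left and DHT on the right of each panel, with circles, squares and triangles for replicates 1, 2 and 3 and the mean ± SD beside them. Ldhd, Ldha, Khk, Sord and Tpi1 show no overlap between groups, and control replicate 3 lies far above all others for Hk1.

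Ldha, whose product is the muscle-type subunit, was at 523, 472 and 535 CPM in DHT replicates 1, 2 and 3 and at 367, 371 and 367 CPM in the controls. The controls were within 4 CPM of each other and all DHT libraries were above them. The log2 fold change was 0.47 ± 0.13 and did not pass (edgeR adjusted p = 0.0844), while DESeq2 called Ldha higher (adjusted p = 0.00147). Ldhb, the heart-type subunit, averaged 1440 ± 211 CPM under DHT, against 1247 ± 113 CPM in the controls (log2 fold change 0.21 ± 0.18). Per kilobase of coding transcript, the controls had 956 ± 86.3 CPM per kilobase of Ldhb, 203 ± 1.2 of Ldha and 113 ± 23.6 of Ldhd, and the DHT libraries 1104 ± 162, 281 ± 18.6 and 293 ± 104. Ldhb was thus the most abundant of them per length in both groups, and Ldhd lay below Ldha in each control library. In DHT the levels of Ldha and Ldhd per length did not differ beyond their spread. The count of Ldhd over that of Ldha, a ratio free of library scaling, was 1.70, 0.888 and 1.29 across DHT replicates 1, 2 and 3, against 0.546, 0.828 and 0.718 in the controls. This was one of 4 ratios chosen after values were seen, and its two-sided exact permutation p of 0.1 is the smallest that 3 against 3 allow (0.133 adjusted over the 4).

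The bases before the starts of Ldhd, Khk, Ldha and Tpi1, the 4 genes with the smallest p among the 41, are shown because these genes had their 3 DHT libraries above all controls. Each is the 250 bases before the RefSeq start (GRCm38.p6), 5′ to 3′ on the strand of the gene, with the letters ACGTG or its reverse complement CACGT in capitals. ACGTG is the core of the hypoxia response element, and where it stands in CACGTG it is also the E-box read by clock and other basic helix-loop-helix factors.
Ldhd (chr8:111630337-111630586, minus strand): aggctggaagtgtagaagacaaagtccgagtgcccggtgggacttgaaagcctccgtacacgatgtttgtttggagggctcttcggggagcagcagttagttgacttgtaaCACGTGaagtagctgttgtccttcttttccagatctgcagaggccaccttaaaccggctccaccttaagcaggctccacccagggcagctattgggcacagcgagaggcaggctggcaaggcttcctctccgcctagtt
Khk (chr5:30921309-30921558, plus strand): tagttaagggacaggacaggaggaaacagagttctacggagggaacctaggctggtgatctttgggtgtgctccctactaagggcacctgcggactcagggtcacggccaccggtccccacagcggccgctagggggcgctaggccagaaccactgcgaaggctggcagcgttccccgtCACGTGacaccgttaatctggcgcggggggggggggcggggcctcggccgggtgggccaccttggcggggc
Ldha (chr7:46845554-46845803, plus strand, the upstream of its RefSeq starts): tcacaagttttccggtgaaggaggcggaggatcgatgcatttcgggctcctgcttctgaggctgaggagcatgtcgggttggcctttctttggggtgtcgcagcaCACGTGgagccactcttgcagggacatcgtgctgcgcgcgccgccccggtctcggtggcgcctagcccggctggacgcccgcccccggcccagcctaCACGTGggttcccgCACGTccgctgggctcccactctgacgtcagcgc
Tpi1 (chr6:124814159-124814408, minus strand): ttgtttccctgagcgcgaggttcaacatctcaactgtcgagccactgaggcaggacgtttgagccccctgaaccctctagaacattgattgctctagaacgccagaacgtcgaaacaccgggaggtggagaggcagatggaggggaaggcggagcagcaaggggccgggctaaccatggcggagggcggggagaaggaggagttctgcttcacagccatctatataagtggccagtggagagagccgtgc
In the windows shown, Ldhd and Khk hold 1 CACGTG each, Ldha holds 2 and 1 further ACGTG core, and Tpi1 holds 0 of either. The downstream RefSeq window of Ldha (chr7:46846832-46847081), not shown, holds 0 of either. On both strands, 9 of the 40 genes with a RefSeq window here hold CACGTG in at least 1 of their windows, against 6.86% of all 27025 genes, and 16 of 40 hold ACGTG, which every CACGTG contains, against 18.5%. The 9 were Khk, Ldha, Ldhd, Ogdh, Pcx, Pdk2, Pfkfb2, Pfkfb3 and Pfkm, of which Ogdh, Pdk2 and Pfkfb3 had log2 fold changes of -0.02, 0.09 and 0.02 and Pfkfb2 one of -0.33. The D-box TTATGTAA was found in 0 of 40, against 0.977% of all genes. AGAACA, a core bound by steroid receptors, was found in 7 of 40, Tpi1 among them, against 18.2%. A gene with more windows has more places for a match, and Ogdh, Pfkm and Pfkfb2 have several windows each. The shares make no allowance for the number of windows. These are matches of letters in a window and no more.

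Fructose is taken up and split by cells of the proximal tubule. Khk encodes ketohexokinase, which phosphorylates fructose, and Sord encodes sorbitol dehydrogenase, which makes fructose from sorbitol. Khk (chromosome 5, 30921431 to 30931248, plus strand) was at 590, 450 and 687 CPM in DHT replicates 1, 2 and 3 and at 353, 367 and 334 CPM in the controls. All DHT libraries were above all controls, with DHT replicate 2 again the nearest. The log2 fold change was 0.71 ± 0.18 and did not pass (edgeR adjusted p = 0.0652). It was called without DHT replicate 2 (0.85, edgeR adjusted p = 0.0157), with no low-count filter (edgeR adjusted p = 0.0279) and by DESeq2 (adjusted p = 0.00186). Over all 14 alternative settings its adjusted p ran from 0.00186 to 0.184. Sord was at 1701, 1575 and 1804 CPM in DHT and 1492, 1258 and 976 CPM in the controls. The gap between the groups was narrow, and control replicate 3, with the lowest proximal tubule marker RNA, was the lowest (log2 fold change 0.45 ± 0.19, edgeR adjusted p = 0.205). Without that library the log2 fold change of Sord was 0.29.

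**Figure D3:**
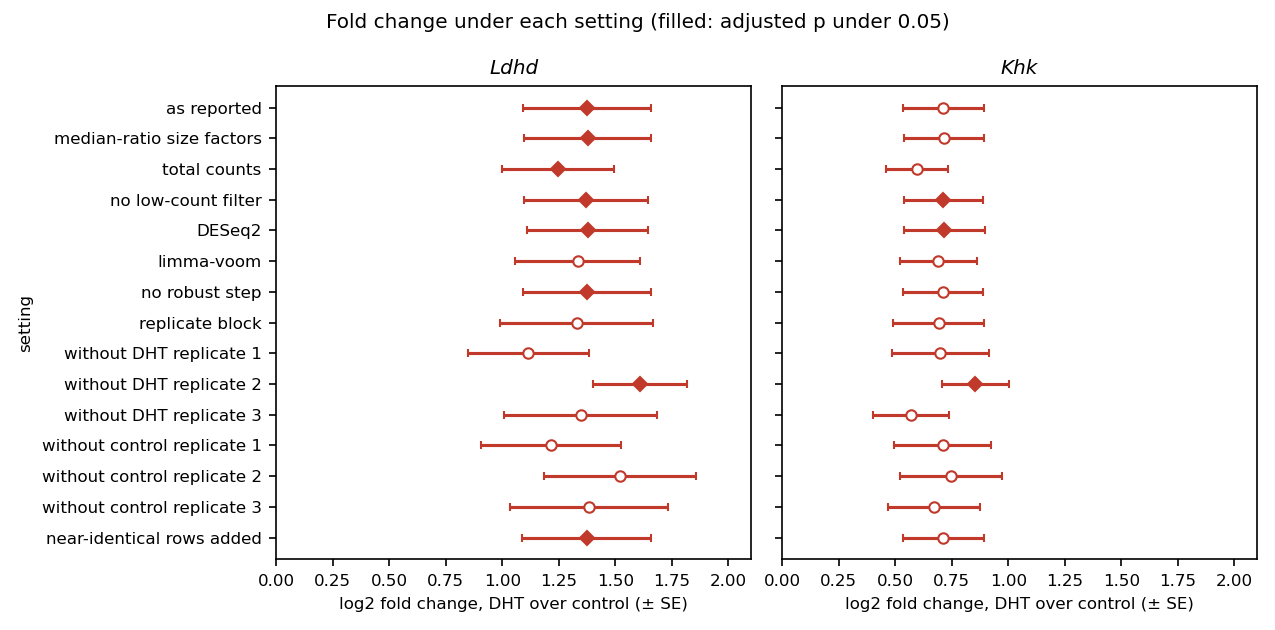
Log2 fold change ± SE (horizontal axis) of Ldhd and Khk as reported and under each of 14 alternative settings (vertical axis); filled points had an adjusted p under 0.05. Ldhd lay between 1.11 and 1.61 and Khk between 0.57 and 0.85, all above 0.

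Further down the fructose route, Glyctk, glycerate kinase, was at 266 ± 71.1 and 177 ± 23.2 CPM (edgeR adjusted p = 0.139), DHT first. The groups overlapped, with 185 CPM in DHT replicate 2 and 203.5 CPM in control replicate 2. The Glyctk transcript shares exonic bases with genes on the opposite strand.

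Gluconeogenesis genes did not move as 1 group. Of the 5, 4 had a positive and 1 a negative log2 fold change, and 0 were called. Pcx, pyruvate carboxylase, which feeds pyruvate into oxaloacetate, was at 775, 525 and 981 CPM in DHT replicates 1, 2 and 3 and at 564, 492 and 365 CPM in the controls. DHT replicate 2 lay below control replicate 1, so the groups overlapped (log2 fold change 0.68 ± 0.25, edgeR adjusted p = 0.151). Without DHT replicate 2 the gene Pcx was called (0.88, edgeR adjusted p = 0.0435), and without DHT replicate 3 its log2 fold change was 0.46 (0.381).

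PEPCK converts oxaloacetate to phosphoenolpyruvate. Pck1, the cytosolic form, was at 3017, 2409 and 4749 CPM under DHT, against 2353, 2816 and 2184 CPM in the controls. DHT replicate 3 stood well above the rest and DHT replicate 2 lay among the controls (log2 fold change 0.47 ± 0.27, edgeR adjusted p = 0.317). Without DHT replicate 3 the log2 fold change of Pck1 was 0.15. Pck2, the mitochondrial form, was at 20.4, 20.3 and 23.4 CPM under DHT, against 16.2, 16.2 and 17.9 CPM in the controls, with no overlap (0.35 ± 0.13, edgeR adjusted p = 0.151). Per length Pck1 was far above Pck2, at 921 ± 123 against 3.62 ± 0.21 CPM per kilobase in control. Fbp1, fructose-1,6-bisphosphatase, averaged 1052 ± 253 CPM under DHT, against 940 ± 115 CPM in the controls (0.16 ± 0.21), and its sign turned without DHT replicate 3 (-0.03).

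G6pc, the catalytic unit of glucose-6-phosphatase that frees glucose in the last step, was at 343, 386 and 527 CPM in DHT replicates 1, 2 and 3 and at 602, 812 and 481 CPM in the controls. Among the 5 gluconeogenesis genes of the 41, G6pc was the 1 with a negative log2 fold change, -0.59 ± 0.24. It overlapped between DHT replicate 3 and control replicate 3 and did not pass (edgeR adjusted p = 0.173). Without control replicate 2 the log2 fold change of G6pc was -0.37. Its partner Slc37a4, which carries glucose 6-phosphate to the enzyme inside the endoplasmic reticulum, was at 305, 217 and 334 CPM under DHT, against 214, 175 and 146 CPM in the controls (log2 fold change 0.68 ± 0.20, edgeR adjusted p = 0.0932). The groups of Slc37a4 did not overlap. The count of G6pc over that of Slc37a4 was 1.13, 1.78 and 1.58 across DHT replicates 1, 2 and 3, against 2.82, 4.64 and 3.30 in the controls. The count of G6pc over that of Pck1 was 0.114, 0.160 and 0.111 under DHT, against 0.256, 0.288 and 0.220 in the controls. Neither ratio overlapped between groups. The first differed by -1.26 in log2, and the second averaged 0.128 ± 0.0277 under DHT, against 0.255 ± 0.034; each had a two-sided exact permutation p of 0.1, the smallest this design allows (0.133 adjusted over the 4 ratios). These pairs too were chosen after values were seen. The ubiquitous form G6pc3 averaged 55.8 ± 9.92 CPM under DHT, against 50.5 ± 5.48 CPM in the controls.

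**Figure D4:**
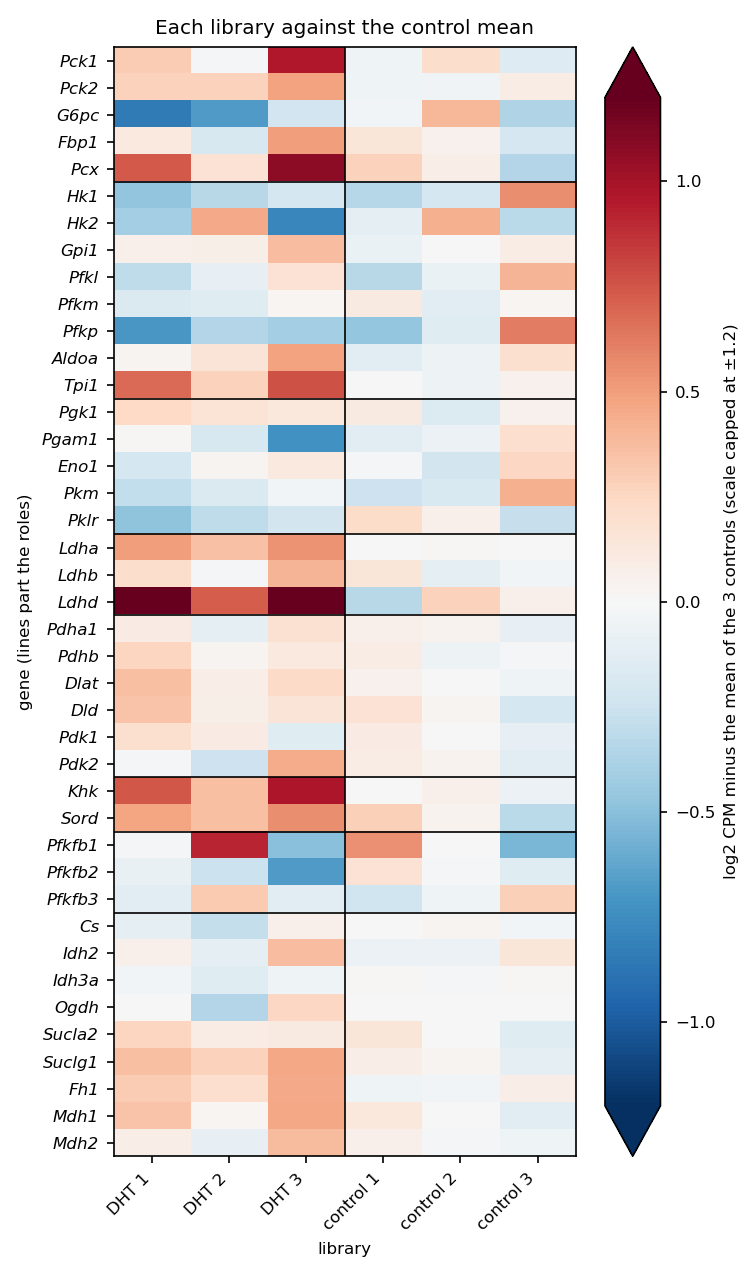
Log2 CPM of each library minus the mean of the 3 controls, for the 41 genes (rows, parted by role) and 6 libraries (columns); red is higher and blue lower, and the scale is capped at ±1.2. DHT replicate 3 had the highest value for 20 of the 41 genes, and control replicate 3 stood out for Hk1, Pfkp and Pkm.

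Upper glycolysis, from glucose to the triose phosphates, held 0 calls among 8 genes, and 5 of the 8 had negative log2 fold changes. Tpi1, triosephosphate isomerase, which joins the fructose and glucose routes, was at 899, 680 and 958 CPM in DHT replicates 1, 2 and 3 and at 566, 539 and 584 CPM in the controls. The controls were tight and all DHT libraries above them (log2 fold change 0.59 ± 0.17, edgeR adjusted p = 0.0896). Tpi1 was called by DESeq2 (adjusted p = 0.00612) and without DHT replicate 2 (0.71, edgeR adjusted p = 0.0293). Aldoa, aldolase A, and Gpi1, glucose-6-phosphate isomerase, averaged 1002 ± 166 and 482 ± 59.5 CPM under DHT, against 855 ± 103 and 427 ± 24.2 CPM in the controls, with overlap.

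Of the entry and commitment enzymes, Hk1 and Pfkp had 1 control library far from the others, while Pfkm did not. Hk1, hexokinase 1, which traps glucose in the cell, was at 134, 148 and 161 CPM in DHT replicates 1, 2 and 3 and at 147, 160 and 273 CPM in the controls. Pfkp, the platelet-type phosphofructokinase, was at 49.3, 62.8 and 60.3 CPM under DHT, against 57.9, 72.2 and 122 CPM in the controls. Control replicate 3 was the highest library for both genes, and it is also the library with the most loop of Henle and principal cell marker RNA; the part of those cells in these values was not tested. The log2 fold change of Hk1 was -0.39 ± 0.23 with all libraries and -0.07 without control replicate 3. That of Pfkp was -0.55 ± 0.26 (edgeR adjusted p = 0.252) with all libraries and -0.19 without it. A stretch of the Pfkp transcript, 748 bases, lies over exons of Pitrm1 on the opposite strand.

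Pfkl and Pfkm, the liver-type and muscle-type phosphofructokinases, had log2 fold changes of -0.09 ± 0.20 and -0.10 ± 0.11, and that of Pfkl was 0.13 without control replicate 3. Per length the 3 phosphofructokinases were close in control, at 28.3 ± 2.36 CPM per kilobase for Pfkm, 20.3 ± 8.11 for Pfkp and 19.9 ± 5.35 for Pfkl, and Pfkp and Pfkl did not differ beyond their spread. Hk2, hexokinase 2, had 121 counts over the 6 libraries and lay at 0.653 to 1.69 CPM, and its sign turned without DHT replicate 3 or control replicate 2.

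**Figure D5:**
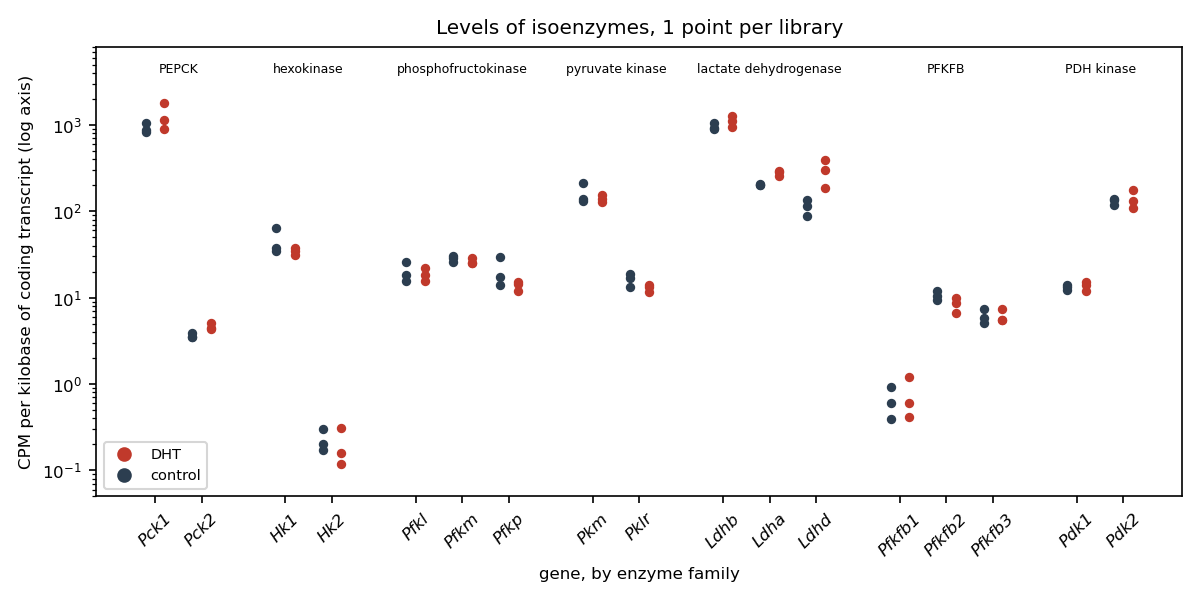
CPM per kilobase of coding transcript (log axis) for isoenzyme families, 1 point per library, controls dark and DHT red. Pck1, Hk1, Pkm and Pdk2 lie far above Pck2, Hk2, Pklr and Pdk1 in both groups, and the Ldhd points lie nearer to those of Ldha in DHT.

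Lower glycolysis, from the triose phosphates to pyruvate, held 0 calls among 5 genes, with 4 negative log2 fold changes. Pklr encodes the liver and red cell pyruvate kinase, which makes pyruvate. It was at 33.7, 38.1 and 40.3 CPM in DHT replicates 1, 2 and 3 and at 54.8, 49.3 and 38.8 CPM in the controls. Only control replicate 3 fell within the DHT range (log2 fold change -0.35 ± 0.15, edgeR adjusted p = 0.196). A stretch of the Pklr transcript lies over exons of Hcn3 on the opposite strand.

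Pkm, the other pyruvate kinase gene, averaged 339 ± 31.4 CPM under DHT, against 388 ± 107 CPM in the controls, with 511 CPM in control replicate 3, and its sign turned without that library (0.05). Pgk1, phosphoglycerate kinase, was at 106, 100 and 97.6 CPM under DHT, against 96.7, 79.8 and 93.0 CPM in the controls. DHT replicate 3 and control replicate 1 were close, but the groups did not overlap (0.17 ± 0.12, edgeR adjusted p = 0.39), and without control replicate 2 the log2 fold change of Pgk1 was 0.09. Pgam1, phosphoglycerate mutase, averaged 35.4 ± 8.86 CPM under DHT, against 43.0 ± 5.32 CPM in the controls.

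Eno1, enolase, averaged 184 ± 21 CPM under DHT, against 188 ± 31.6 CPM in the controls, but it has 3 genes with transcripts at least 95% identical over at least 50% of its length, which held 15496 counts against its own 19466. The largest of these, Eno1b, averaged 72.5 ± 5.88 CPM under DHT, against 101 ± 22.9 CPM in the controls, again highest in control replicate 3 at 127 CPM. With their counts added, the log2 fold change of Eno1 was -0.14 (edgeR adjusted p = 0.614). In all, 7 of the 41 genes have such near-identical genes (Gpi1, Pgk1, Eno1, Pkm, Ldha, Ldhb and Pdhb), and adding those counts left Ldhd the called gene. Gapdh, the glycolytic dehydrogenase, has 71 of them, held 3543 counts in all, and averaged 36.1 ± 5.15 CPM under DHT, against 32.2 ± 10.6 CPM in the controls, and how reads were split among those genes is not known.

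The genes of pyruvate oxidation held 0 calls. The pyruvate dehydrogenase complex turns pyruvate into acetyl-CoA, and its kinases switch it off. All 6 had small positive log2 fold changes of 0.05 to 0.23 under TMM, and those of Pdha1, Pdk1 and Pdk2 were negative under total counts, which lowered the median of all genes to -0.10. Dlat, the acetyltransferase core, was at 210, 173 and 191 CPM in DHT replicates 1, 2 and 3 and at 170, 162 and 158 CPM in the controls. The groups did not overlap, though DHT replicate 2 and control replicate 1 were within 4 CPM (log2 fold change 0.23 ± 0.12, edgeR adjusted p = 0.295). Dld, the lipoamide dehydrogenase that this complex shares with others, was at 472, 391 and 415 CPM under DHT, against 422, 382 and 322 CPM in the controls, with overlap (0.18 ± 0.16, edgeR adjusted p = 0.507). Without control replicate 3 the log2 fold change of Dld was 0.08, and without DHT replicate 1 it was 0.10.

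Pdha1 and Pdhb, the subunits of the decarboxylase, averaged 609 ± 61.2 and 191 ± 15.4 CPM under DHT, against 583 ± 35.7 and 174 ± 9.45 CPM in the controls. Pdk2 averaged 313 ± 78.9 CPM under DHT, against 295 ± 22.6 CPM in the controls, and Pdk1 70.8 ± 8.19 and 68.3 ± 4.74 CPM. Their 95% intervals, -0.34 to 0.52 and -0.23 to 0.33 log2, show how large a difference these libraries allow. The mitochondrial pyruvate carrier has a pair of subunits: Mpc2 averaged 245 ± 7.99 CPM under DHT, against 195 ± 14.9 CPM in the controls (log2 fold change 0.33 ± 0.12), and Mpc1 23.7 ± 6 and 31.1 ± 2.65 CPM (-0.39 ± 0.19). Their edgeR adjusted p values were 0.153 and 0.248, and without DHT replicate 3 the log2 fold change of Mpc1 was -0.20.

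The bifunctional enzymes encoded by the Pfkfb genes make and remove fructose 2,6-bisphosphate, which drives phosphofructokinase and blocks fructose-1,6-bisphosphatase. Pfkfb2 was at 43.6, 38.8 and 29.1 CPM in DHT replicates 1, 2 and 3 and at 52.3, 45.9 and 41.9 CPM in the controls. DHT replicate 1 fell among the controls (log2 fold change -0.33 ± 0.16, edgeR adjusted p = 0.26), and without DHT replicate 3 the log2 fold change of Pfkfb2 was -0.18. The Pfkfb2 transcript shares exonic bases with other genes. Pfkfb3 averaged 29.6 ± 5.5 CPM under DHT, against 29.2 ± 5.54 CPM in the controls. Pfkfb4 averaged 12.3 ± 1.77 CPM under DHT, against 9.37 ± 0.70 CPM in the controls (edgeR adjusted p = 0.213). Pfkfb1 had 132 counts in all, with 1.13, 2.25 and 0.771 CPM under DHT, against 1.72, 1.14 and 0.742 CPM in the controls, and its sign turned without DHT replicate 2 or control replicate 3.

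The TCA cycle oxidises acetyl-CoA to carbon dioxide, and its 9 genes held 0 calls, with a median log2 fold change of 0.13. Suclg1, the alpha subunit of succinyl-CoA ligase, was at 334, 315 and 359 CPM in DHT replicates 1, 2 and 3 and at 275, 267 and 240 CPM in the controls. The groups did not overlap (log2 fold change 0.37 ± 0.13, edgeR adjusted p = 0.139), and DESeq2 called it (adjusted p = 0.0401). Fh1, fumarase, was at 203, 189 and 226 CPM under DHT, against 159, 160 and 174 CPM in the controls. Here too all DHT libraries were higher (0.32 ± 0.12, edgeR adjusted p = 0.161).

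Sdhc and Sdhd, the membrane anchors of succinate dehydrogenase, which works between those enzymes, averaged 397 ± 30.1 and 370 ± 16.2 CPM under DHT, against 310 ± 19.4 and 295 ± 18.8 CPM in the controls. They had no overlap either and did not pass (edgeR adjusted p = 0.157 and 0.167). Other genes of the cycle, Sdha, Sdhb, Suclg2 and Idh3g, had log2 fold changes of 0.115, 0.266, 0.257 and 0.305, but their groups overlapped. Sdha and Sdhb encode the remaining subunits of succinate dehydrogenase. Cs and Ogdh did not show the gap either. Cs, citrate synthase, averaged 304 ± 36.9 CPM under DHT, against 328 ± 7.36 CPM in the controls, and Ogdh, the 2-oxoglutarate dehydrogenase, 750 ± 153 and 758 ± 3.23 CPM. Idh3a, a subunit of the NAD-linked isocitrate dehydrogenase, was at 210, 194 and 208 CPM under DHT, against 217, 211 and 218 CPM in the controls. It was the gene of the 41 with all DHT libraries lower, by less than 1 CPM at the closest (-0.08 ± 0.11, edgeR adjusted p = 0.722).

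Idh2, the NADP-linked mitochondrial isocitrate dehydrogenase, averaged 540 ± 93.6 CPM under DHT, against 498 ± 43.2 CPM in the controls, and Sucla2, the beta subunit of the ADP-forming succinyl-CoA ligase, 248 ± 16.5 and 224 ± 21.9 CPM. Mdh1 and Mdh2, the cytosolic and mitochondrial malate dehydrogenases, averaged 1467 ± 220 and 485 ± 82.2 CPM under DHT, against 1204 ± 103 and 443 ± 16.8 CPM in the controls. The log2 fold changes of Idh2 and Mdh2 turned negative without DHT replicate 3.

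Of the other genes of these routes, chosen by function, 54 were listed and 50 tested, and 0 were called in either direction, with 35 positive and 15 negative log2 fold changes. DESeq2 called 5 of them higher and 0 lower, against 1634 of all 15367 genes called in either direction. At an unadjusted p under 0.05 in edgeR, 9 of them were higher and 0 lower. Over all 15367 genes these counts were 1839 and 1839. Me1, the cytosolic malic enzyme, which makes NADPH from malate, was at 625, 350 and 510 CPM in DHT replicates 1, 2 and 3 and at 276, 338 and 229 CPM in the controls. The groups met closely at DHT replicate 2 and control replicate 2 (log2 fold change 0.82 ± 0.23, edgeR adjusted p = 0.0876). Pgm2, a phosphoglucomutase, averaged 125 ± 22.1 CPM under DHT, against 82.7 ± 6.42 CPM in the controls (0.60 ± 0.15, edgeR adjusted p = 0.0654). Taldo1, transaldolase of the pentose phosphate route, was at 245 ± 33.2 and 179 ± 7.59 CPM (0.45 ± 0.14, edgeR adjusted p = 0.1). All 3, with Slc37a4, were called without DHT replicate 2 and by DESeq2.

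Bpgm, bisphosphoglycerate mutase, averaged 60.6 ± 4.66 CPM under DHT, against 47.5 ± 2.58 CPM in the controls (edgeR adjusted p = 0.105), with no overlap. Pgls, which follows glucose-6-phosphate dehydrogenase in the pentose phosphate route, was at 45.3 ± 6.94 and 36.6 ± 5.19 CPM, with overlap.

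DHT replicate 2 was the DHT library nearest to the controls for many of these genes. Set against the control mean, the 41 genes had median log2 values of 0.08, 0.03 and 0.18 across DHT replicates 1, 2 and 3, against 0.008, -0.007 and -0.03 in the controls. For gluconeogenesis it was 0.28, -0.02 and 0.50 under DHT, against -0.04, 0.08 and -0.20 in control, and for the TCA cycle 0.08, -0.10 and 0.37, against 0.01, -0.007 and -0.03. Lower glycolysis had medians of -0.21, -0.17 and -0.03 under DHT, and fructose bisphosphate control -0.09, 0.32 and -0.50. By the medians of the TCA cycle and of these roles, DHT replicate 2 was not the nearest to the control mean. For fructose and sorbitol the median was 0.61, 0.36 and 0.77 under DHT, against 0.15, 0.05 and -0.20 in control. For the lactate dehydrogenases it was 0.50, 0.35 and 0.54, against -0.005, 0.01 and -0.005. In fructose and sorbitol and in the lactate dehydrogenases the medians of the groups stayed apart. The lactate dehydrogenase median was the value of Ldha in every library, and Ldhb overlapped between groups. The fructose and sorbitol role held Khk and Sord alone. Leaving out DHT replicate 2 raised the number of the 41 genes called higher to 4 (Ldhd, Khk, Pcx and Tpi1). Over all genes, calls in either direction rose with it from 437 of 15367 tested to 1224 of 15772. Leaving out any other single library left 0 of the 41 called. DHT replicate 2 was the DHT library with the most macrophage, endothelial and red blood cell marker RNA and the least of the proximal straight segment; the part of these in the differences was not tested.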

How the data were processed

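The authors deposited 1 table of raw counts, whole numbers by gene symbol, for 6 libraries. HISAT2 2.0 and the build mm10 are named in the submitters' processing notes; for the counting tool, its annotation, its strand setting and its treatment of multiply mapped reads, nothing is stated in the sources used here. Columns were matched to samples by title, and groups came from the treatment label. The test was that of edgeR 4.0.16 under R 4.3.3: filterByExpr (minimum count 10, minimum total 15) left 15367 genes, scaled by TMM, with a robust quasi-likelihood fit on the group and Benjamini-Hochberg adjustment over all genes at 0.05. SE values are those the F statistic implies, and 95% intervals use the fit's degrees of freedom. Relative log2 values used a prior count of 2. The code was tested on simulated data. The common biological coefficient of variation was 0.217, and pairs of libraries differed by at least 22.1 times counting noise (chi-square over degrees of freedom), so none was a repeat.

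Levels per length used the longest coding transcript in GENCODE M21 on GRCm38, the assembly of mm10; all 41 symbols matched. Near-identical transcripts were sought with BLAST 2.17.0+ at 95% identity over 50% of the transcript, and sequences are from RefSeq (40 of 41 matched). The 41 genes and all lists were chosen with earlier results of these data known. Genes given in full are those called and, in each role, the 2 with the smallest unadjusted p. G6pc, Pck1, Hk1, Idh3a, Sdha, Sdhb, Sdhd, Suclg2, Idh3g, the named segment markers and the ratios were added after their values were seen. So was the addition of near-identical rows. Other settings were scaling by total counts or by median-ratio size factors, fitting all genes with no low-count filter, DESeq2 1.42.0, limma-voom (limma 3.58.1), no robust step, a replicate block and leaving out each library. One of the 4 count ratios and 1 gene of the pathway lists are not reported here.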

Additional observations from a re-analysis of the deposited data

How the results depend on the processing

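The number of the 41 genes called higher, 1 as reported, was 5 with DESeq2, 2 with no low-count filter and 0 with limma-voom, and ran from 0 to 4 over the fits that leave out 1 library; the number called lower was 0 in all settings tried. With the replicate block it was 0; same-numbered libraries did not deviate together (correlations 0.07, -0.15 and 0.04), so this pairing rests on a shared number alone. Over all genes, 437 of 15367 tested were called in either direction, against 1634 of 15367 with DESeq2. There were 852 of 25414 with no low-count filter and 85 of 15367 with the replicate block. When 1 library was left out, the number ran from 0 to 1224, the latter of 15772 tested without DHT replicate 2. The other genes of these routes called higher were 5 with DESeq2, 3 with no low-count filter and from 0 to 5 with 1 library left out, and those called lower from 0 to 1 (Fbp2, without DHT replicate 2, which also gave the highest counts). The causes of these moves were not tested. Total counts moved the median of all genes from 0.003 to -0.10, and with that shift the log2 fold change was negative for Pdha1 (-0.048), Pdk1 (-0.047), Pdk2 (-0.03), Pfkfb3 (-0.079) and Idh2 (-0.004). With 1 library left out, signs turned for genes near 0: Pfkfb1 ran from -0.34 to 0.55, Hk2 from -0.70 to 0.069, Pfkl from -0.25 to 0.13, Eno1 from -0.14 to 0.10, Pkm from -0.33 to 0.045, Fbp1 from -0.034 to 0.30, Gapdh from -0.083 to 0.36 and G6pc3 from -0.002 to 0.24. Likewise Pdk1 ran from -0.018 to 0.14, Pdk2 from -0.13 to 0.22, Pfkfb3 from -0.15 to 0.17, Idh2 from -0.026 to 0.21, Ogdh from -0.17 to 0.12 and Mdh2 from -0.007 to 0.23. Of 770 refitted fold changes, those of 55 genes under 14 settings, 716 kept their sign and side of the threshold. Among these genes only Ldhd was called as reported, so the others had no call to lose. The call of Ldhd was lost in 7 of the 14 settings. Depth limits Hk2 (121 counts in all) and Pfkfb1 (132) most.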
